A study of Saccharomyces cerevisiae with 3 samples.

Results

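The genes described here build, remodel and monitor the cell wall of Saccharomyces cerevisiae. They were taken from a list of 44 symbols covering glucan synthesis and remodelling, chitin, wall proteins anchored through glycosylphosphatidylinositol (GPI), Pir proteins and the cell integrity pathway. Probes were named by the platform annotation. Of the 44 genes, 43 had a named probe, among 5203 genes named on the array, and 38 had a value on all 3 arrays and could be tested. KNH1, CCW14 and RLM1 had values on 2 arrays, PKC1 and BCK1 on 1, and FKS1 had no named probe and was not analysed here.

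Strain S288C, a widely used laboratory strain, was grown in YPD, a rich glucose medium, at 25 C. Exponential cultures of 100 ml received the fungicide fluazinam, an uncoupler of oxidative phosphorylation, at 1.5 uM for 2 h, while control cultures were grown on for 2 h without it. The poly(A) RNA of treated cells was labelled with Cy5 and that of untreated cells with Cy3, and both were hybridised together on each of 3 two-colour arrays, described as independent biological samples. The dyes were not swapped, so a dye bias of a gene cannot be told apart from the treatment. Whether each control RNA came from its own culture was not stated.

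The yeast wall is a mesh of beta-1,3-glucan, to which beta-1,6-glucan, chitin and mannoproteins are attached. Sensors in the plasma membrane report wall stress to the GTPase Rho1, which activates the glucan synthase and, through protein kinase C, a kinase cascade ending in the MAP kinase Slt2 and the transcription factor Rlm1. Several wall genes exist as paralogues, of which 1 serves growing cells and another is known to be induced by stress, starvation or entry into stationary phase.

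All values below are log2 ratios of treated over untreated cells, not transcript levels. The base and direction of the deposited ratios were not stated. The direction is likely, since the treated sample is channel 1 and Cy5, and the opposite reading would turn every sign. A natural log in place of log2 would make every fold larger. Values were present for 71.2%, 83.6% and 77.6% of 6272 probes on replicates 1 to 3. Ratios carry no signal over background, so neither weak expression nor the strain's identity could be checked. Medians of blocks of neighbouring spots, inferred from the probe numbers and called sub-grids here, ran from -0.91 to 0.57 on replicate 1, from -0.87 to 0.31 on replicate 2 and from -0.78 to 0.55 on replicate 3. Each result is therefore also given after subtracting the sub-grid medians where that changes a call or a direction.

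Cell wall genes were called in both directions. The glucan synthase gene GSC2 and the wall mannoprotein gene SED1 rose, and the glucan-modifying enzyme genes GAS3 and UTR2 fell. These 4 of 38 tested genes, or 10.5%, passed an adjusted p of 0.05 in limma's test with Benjamini-Hochberg adjustment over 3802 features, where 7.86% of all features passed, 3.39% higher and 4.47% lower. The share is near that background and is no result about wall genes as a group. At an unadjusted p under 0.05 there were 14 members, 36.8%, against 29.7% of all features.

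The median over the 38 genes was -0.28, against -0.0049 for all features. On the single arrays it was -0.25, -0.39 and 0.05, and without replicate 2 it was -0.11. A mean below 0 was found for 26 of them, 68.4%, against 50.2% of all features. Below 0 on all 3 arrays were 11 genes, 28.9% against 27.1%, and above 0 on all 3 were 6 genes, 15.8% against 25.2%. After sub-grid centring the median was -0.02, where all features gave -0.03, so the lower median was not kept under that setting. There, 20 of the 38 means were below 0, against 52.4% of all features. Across the 38 genes, which are not independent replicates, Pearson's r between arrays was 0.711 for replicates 1 and 2, 0.477 for 1 and 3, and 0.509 for 2 and 3.

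**Figure D1:**
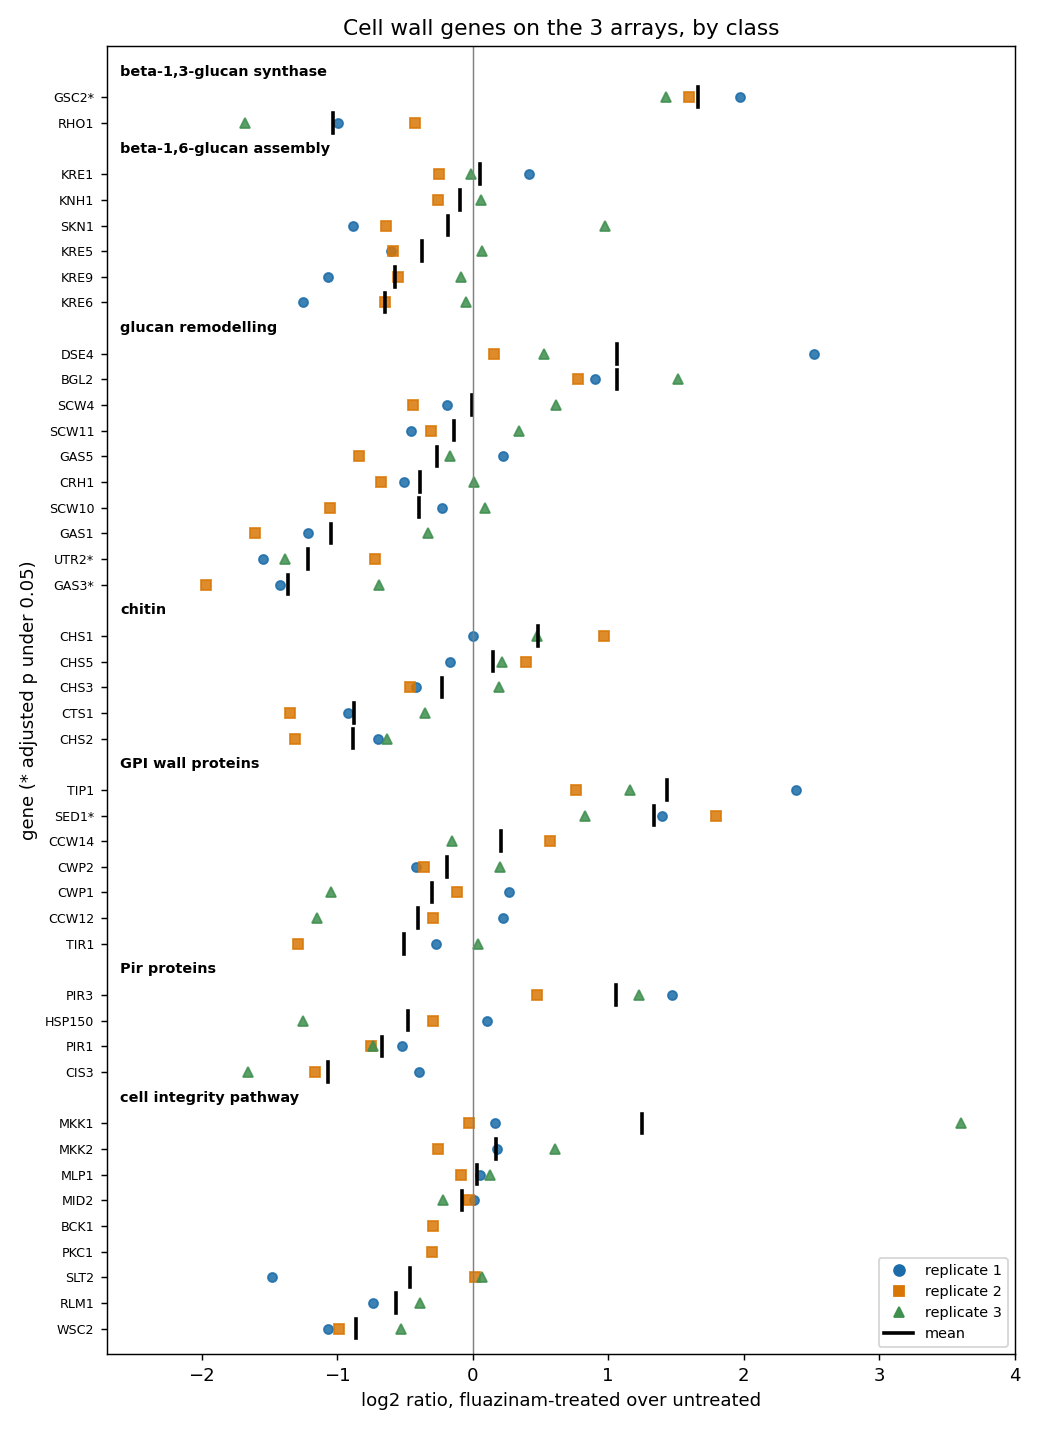
Log2 ratios (treated over untreated, horizontal axis) of the 43 wall genes with a named probe, grouped by class; symbols are the 3 arrays, black bars the means of genes with at least 2 values, and asterisks mark an adjusted p under 0.05. GSC2 and SED1 lie right of 0 on all arrays and GAS3 and UTR2 left of 0, while MKK1 has 1 array at 3.61 and the others near 0.

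In the glucan synthase class, GSC2 (YGR032W) encodes the alternative catalytic subunit of beta-1,3-glucan synthase, known for its expression in stressed, starved and sporulating cells. Its log2 ratios were 1.97, 1.60 and 1.43 on replicates 1 to 3. All arrays were high and close together, with a mean of 1.67 ± 0.28 (SD, n = 3), a 3.17-fold rise (adjusted p = 0.0265, limma), at the 97.5th percentile of tested features. After sub-grid centring the mean was 1.35 and GSC2 was still called. The growth-type subunit gene FKS1 had no named probe, so the 2 paralogues could not be set against each other. RHO1 (YPR165W), the GTPase that activates the synthase, had ratios of -0.99, -0.43 and -1.68. They were below 0 on every array, but the mean of -1.03 ± 0.63 did not pass (adjusted p = 0.0861, limma).

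The beta-1,6-glucan genes had no member past the threshold, and their median was -0.37 over 5 tested genes and -0.76 without replicate 3. KRE6 (YPR159W), which encodes a membrane protein required for this polymer, had ratios of -1.25, -0.65 and -0.05. SKN1 (YGR143W), its paralogue, had -0.88, -0.64 and 0.98. Both were low on replicates 1 and 2, and only SKN1 was high on replicate 3. KRE9 (YJL174W), which encodes a secreted glycoprotein of the same process, had ratios of -1.07, -0.55 and -0.09, while its paralogue KNH1 was at -0.26 and 0.06 on replicates 2 and 3. KRE5 had a mean of -0.37 ± 0.38 and KRE1 of 0.05 ± 0.33. After sub-grid centring the class median was 0.0067, and SKN1 and KRE5 had means above 0 (0.37 and 0.06).

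The 2 glucan remodelling genes that passed the test fell. GAS3 (YMR215W) belongs to a family of GPI-anchored proteins whose best-known member, Gas1, elongates beta-1,3-glucan chains. Its ratios were -1.42, -1.97 and -0.69, all below 0, with a mean of -1.36 ± 0.64, a ratio of 0.390 (adjusted p = 0.0472, limma). UTR2 (YEL040W) encodes a transglycosidase that links chitin to glucan. Its ratios were -1.54, -0.72 and -1.39, again all below 0, with a mean of -1.22 ± 0.44, a ratio of 0.430 (adjusted p = 0.0465, limma). Both were called after sub-grid centring, at -1.62 and -1.40.

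GAS1 (YMR307W), the main glucan elongase, had ratios of -1.21, -1.60 and -0.33. It was below 0 on every array and did not pass, at -1.05 ± 0.65 (adjusted p = 0.0862, limma). GAS5 was at -0.26 ± 0.54. CRH1 (YGR189C), the paralogue of UTR2, had ratios of -0.50, -0.67 and 0.01, near UTR2 only on replicate 2.

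BGL2 (YGR282C), a major wall glucanosyltransferase, stood on the other side with ratios of 0.91, 0.78 and 1.52. Its mean of 1.07 ± 0.39 missed the threshold (adjusted p = 0.0626, limma). The glucanase-like wall protein genes SCW4 (-0.00 ± 0.55), SCW10 (-0.40 ± 0.59) and SCW11 (-0.14 ± 0.42) differed in sign between arrays. DSE4 (YNR067C), a daughter-cell glucanase that helps cells to separate, had ratios of 2.52, 0.16 and 0.53, and its mean of 1.07 ± 1.27 rested on replicate 1 (0.34 without it). Of the 10 genes of this class, 2 fell and 8 did not pass. Their median was -0.33 over all arrays but -0.34, -0.70 and 0.05 on replicates 1 to 3, and -0.061 without replicate 2.

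No chitin gene passed. The median of the 5 was -0.23, with -0.42, -0.46 and 0.19 on replicates 1 to 3, and it was -0.13, -0.11 and -0.44 without replicates 1, 2 and 3 in turn. CHS2 (YBR038W), the synthase of the primary septum, had ratios of -0.70, -1.31 and -0.63, with a mean of -0.88 ± 0.38 (adjusted p = 0.0907, limma). It passed after sub-grid centring, at -1.19 (adjusted p = 0.0276, limma). CTS1 (YLR286C), the endochitinase that cuts the septum at cell separation, had ratios of -0.92, -1.35 and -0.35, also all below 0 (mean -0.87 ± 0.50, adjusted p = 0.104). After centring its mean was -0.32. CHS1 (0.48 ± 0.49), a repair synthase, CHS3 (-0.23 ± 0.37), the synthase of most wall chitin, and CHS5 (0.15 ± 0.29), which helps to carry Chs3 to the surface, did not keep 1 sign on the arrays.

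Among the GPI wall proteins, SED1 (YDR077W) encodes a major wall protein of stationary phase and stress. Its log2 ratios were 1.40, 1.80 and 0.83, high on every array, with a mean of 1.34 ± 0.49, a 2.53-fold rise (adjusted p = 0.0406, limma). After sub-grid centring it was at 1.17 and only just past the threshold (adjusted p = 0.0487, limma). TIP1 (YBR067C), a mannoprotein gene known to respond to temperature shock, had ratios of 2.39, 0.76 and 1.16. All were above 0, and the mean of 1.44 ± 0.85 did not pass as deposited (adjusted p = 0.0576, limma) but did after sub-grid centring, at 1.55 (adjusted p = 0.0276, limma).

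The other GPI protein genes showed no common direction. TIR1 (YER011W), a relative of TIP1 known from cold and low oxygen, had ratios of -0.27, -1.29 and 0.04. CWP2 (YKL096W-A), a main mannoprotein of growing cells, was at -0.42, -0.36 and 0.20, and CWP1 (YKL096W), next to it on the chromosome, at 0.26, -0.12 and -1.05. CCW12 (YLR110C), an abundant structural mannoprotein gene of growing cells, had 0.23, -0.29 and -1.15, and CCW14 had 0.57 and -0.15 on replicates 2 and 3. The means of TIR1, CWP1, CWP2 and CCW12 all lay within 1 SD of 0.

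The Pir genes, whose proteins are bound to glucan through alkali-sensitive links, split. PIR3 (YKL163W) had ratios of 1.47, 0.48 and 1.22, all above 0, with a mean of 1.06 ± 0.52 (adjusted p = 0.0724, limma). PIR1 (YKL164C), the gene beside it in the reference gene order, had -0.52, -0.75 and -0.73, all below 0, with a mean of -0.67 ± 0.13 (adjusted p = 0.132). The ratios of the 2 neighbours thus did not overlap, although neither passed. After sub-grid centring PIR1 had -0.04, -0.53 and -0.15, with a mean of only -0.24, and PIR3 had a mean of 0.88. CIS3 (YJL158C) had ratios of -0.39, -1.16 and -1.66 (mean -1.07 ± 0.64, adjusted p = 0.0818) and passed after sub-grid centring, at -1.27 (adjusted p = 0.0268, limma). HSP150 (YJL159W), adjacent to CIS3, had 0.11, -0.29 and -1.25.

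None of the 6 tested cell integrity pathway genes passed. The median over them was -0.02, and 0.03, -0.06 and 0.10 on the single arrays. After sub-grid centring the median was 0.06. WSC2 (YNL283C), a wall stress sensor, had ratios of -1.07, -0.99 and -0.53, low on all arrays, with a mean of -0.86 ± 0.29 (adjusted p = 0.0877, limma). MID2 (YLR332W), another sensor, stayed between -0.22 and 0.01 as deposited, but had -0.31, 0.04 and 0.37 after sub-grid centring. SLT2 (YHR030C), the MAP kinase, had ratios of -1.48, 0.02 and 0.07; the sub-grid around its probe had medians of -0.91, -0.87 and 0.12, and after centring the mean was 0.09 instead of -0.47.

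Of the paralogous MAP kinase kinase genes, MKK1 (YOR231W) had ratios of 0.16, -0.02 and 3.61, and MKK2 (YPL140C) 0.18, -0.26 and 0.60. The MKK1 mean of 1.25 ± 2.04 came from replicate 3 and was 0.07 without it. RLM1 was at -0.74 and -0.39 on replicates 1 and 3, and PKC1 (-0.30) and BCK1 (-0.29) had a value on replicate 2 only. The symbol MLP1 names YKR095W, which encodes a nuclear pore-associated protein and not the Slt2-like kinase that shares the alias. Its mean was 0.03 ± 0.11, and the kinase, KDX1 (YKL161C), was at 0.22, 0.75 and -0.52.

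**Figure D2:**
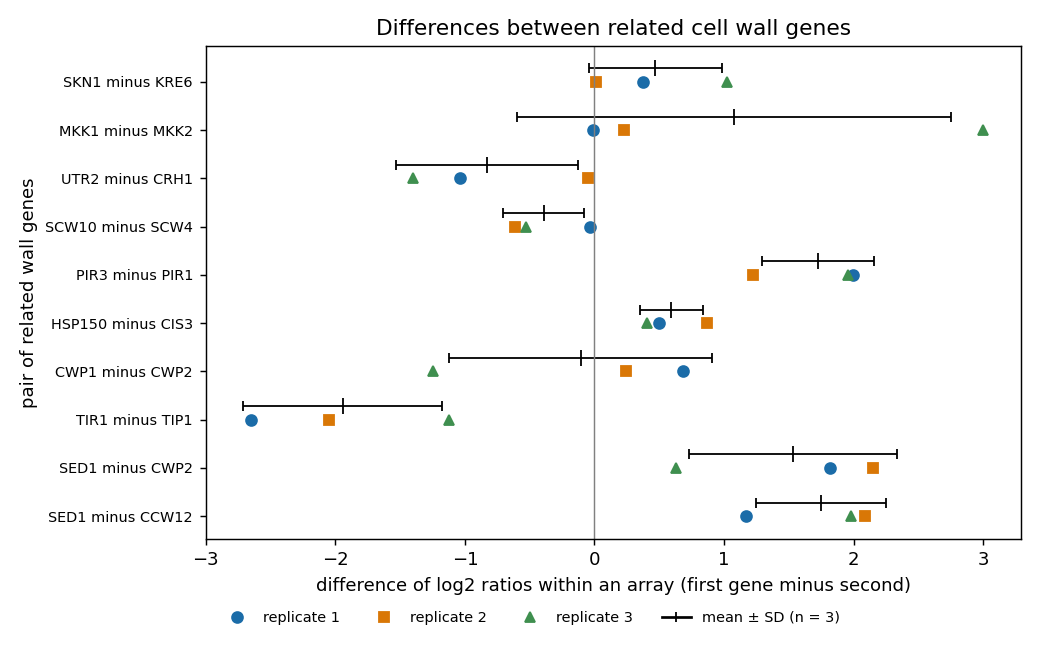
Differences between the log2 ratios of related wall genes within each array (first gene minus second, horizontal axis), with symbols for the 3 arrays and black bars for the mean ± SD (n = 3). The pairs SED1 minus CCW12, SED1 minus CWP2 and PIR3 minus PIR1 lie right of 0 on every array and TIR1 minus TIP1 left of 0.

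Related wall genes were set against each other within each array, by differences of log2 ratios. Not all pairs are paralogues. SED1 was set against CCW12 and CWP2 as genes of the same class, the GPI wall proteins. SED1 exceeded CCW12 by 1.17, 2.09 and 1.98 (mean 1.75 ± 0.50) and CWP2 by 1.82, 2.15 and 0.63 (mean 1.53 ± 0.80). After sub-grid centring these mean differences were smaller, 1.18 over CCW12 and 1.16 over CWP2. PIR3 exceeded PIR1 by 1.99, 1.23 and 1.96 (mean 1.73 ± 0.43), and by 1.12 after sub-grid centring. TIR1 lay below TIP1, with differences of -2.66, -2.05 and -1.13 (mean -1.94 ± 0.77). These 4 differences had 1 sign on all arrays.

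Smaller differences of 1 sign were those of HSP150 minus CIS3 (0.59 ± 0.24), SKN1 minus KRE6 (0.47 ± 0.51), UTR2 minus CRH1 (-0.83 ± 0.70) and SCW10 minus SCW4 (-0.39 ± 0.31). After sub-grid centring HSP150 minus CIS3 was 1.13, SKN1 minus KRE6 0.83 and SCW10 minus SCW4 -0.85. Without replicate 3, SKN1 minus KRE6 was 0.19 and UTR2 minus CRH1 -0.54. MKK1 minus MKK2 (1.07 ± 1.68) and CWP1 minus CWP2 (-0.11 ± 1.01) differed in sign between arrays. In all, 8 of 10 differences measured on 3 arrays had 1 sign. Some of these signs rested on an array near 0. SKN1 minus KRE6 was 0.01 and UTR2 minus CRH1 -0.05 on replicate 2, and SCW10 minus SCW4 was -0.04 on replicate 1. The differences with CCW12 and CWP2 share SED1, and no share for other gene pairs was computed. Over 3 arrays the exact two-sided sign-flip permutation test cannot go below p = 0.25, which those 8 reached (0.312 adjusted over the 10), so this test could call none of them, and no other test was run on the differences.

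Wall genes outside the list were read from the same fit. Of 95 such genes 66 were tested, and 3 rose and 3 fell. This is 9.09% of them, near the 7.86% of all features, and is no result about these genes as a group. BAG7 (YOR134W), which encodes a GTPase-activating protein for Rho1, had ratios of 1.27, 3.14 and 2.20, with a mean of 2.20 ± 0.94 (adjusted p = 0.0277, limma); its probes hold the same deposited values. YGP1 (YNL160W), a secreted glycoprotein gene known to respond to nutrient limitation, had ratios of 2.09, 1.55 and 2.20, with a mean of 1.95 ± 0.35 (adjusted p = 0.0249, limma). SDP1 (YIL113W), a stress-induced phosphatase gene acting on Slt2, had ratios of 1.74, 1.26 and 0.85, with a mean of 1.28 ± 0.44 (adjusted p = 0.0418, limma). On every array these 3 genes were above 0.

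The genes that fell lay below 0 on every array. SRL1 (YOR247W), a mannoprotein gene, had ratios of -2.21, -1.70 and -2.44 (mean -2.12 ± 0.38, adjusted p = 0.0249, limma). SIM1 (YIL123W), of the SUN family, had ratios of -1.35, -1.64 and -2.03 (mean -1.67 ± 0.34, adjusted p = 0.0269, limma). ECM33 (YBR078W), a GPI protein gene needed for an ordered wall, had ratios of -1.15, -2.00 and -1.20 (mean -1.45 ± 0.48, adjusted p = 0.0349, limma), and did not pass after sub-grid centring (-1.06, adjusted p = 0.0652). SPI1, a relative of SED1 named here after its values were seen, had values on 2 arrays, 2.39 and 1.23, and was not tested.

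**Figure D3:**
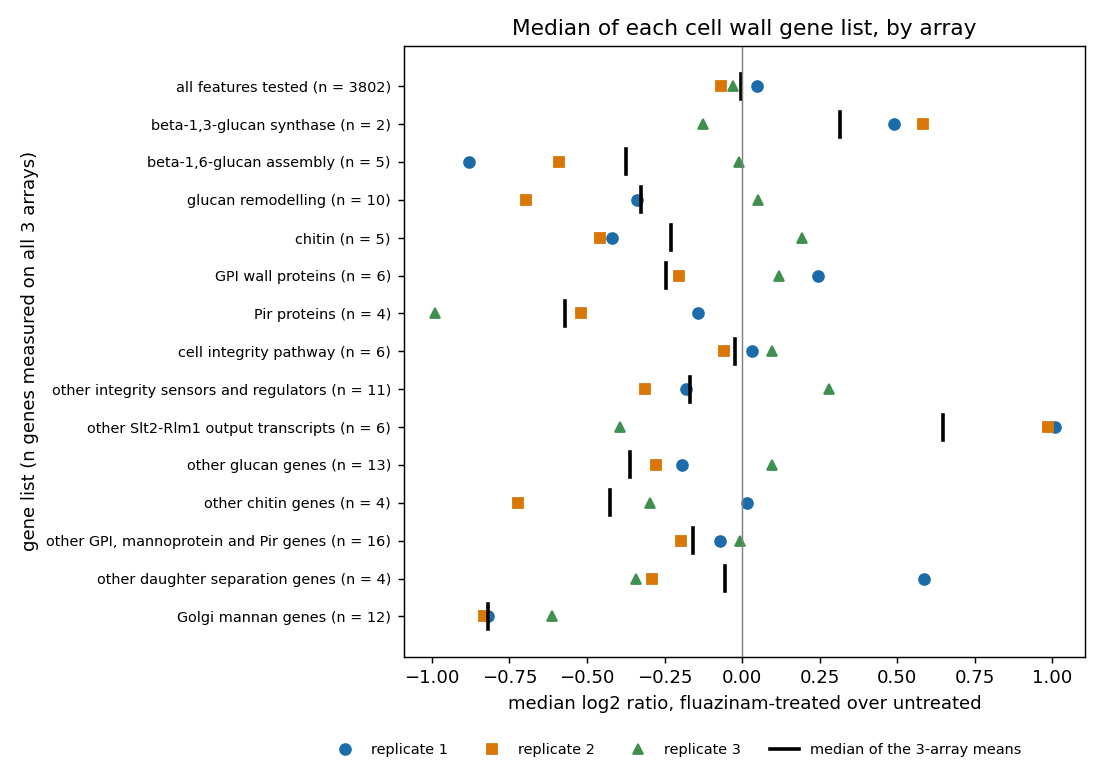
Median log2 ratio of each gene list (horizontal axis) on the 3 arrays (symbols) and over the means (black bars), with all 3802 tested features at the top. The Golgi mannan genes lie below 0 on every array. The other Slt2-Rlm1 output transcripts, without listed members, lie near 1 on replicates 1 and 2 and at -0.39 on replicate 3.

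Golgi mannan genes, whose enzymes build the sugar chains of mannoproteins, had the lowest median of the lists, -0.82 over 12 genes, with array medians of -0.82, -0.83 and -0.61. None of the 12 passed. Below 0 on all arrays were 9 of them, where all features gave 27.1%, and 7 had an unadjusted p under 0.05 with a mean below 0, where all features gave 17%. MNN11 (YJL183W), of a mannosyltransferase complex, was lowest with ratios of -2.06, -0.94 and -0.75 (mean -1.25 ± 0.71, adjusted p = 0.0647, limma). After sub-grid centring the median was -0.67 and all 12 means were below 0, where 52.4% of all features were. MNN11 and ANP1 then passed the threshold, where 10.3% of all features did.

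The 6 transcripts known as outputs of Slt2 and Rlm1, other than listed members, had array medians of 1.01, 0.99 and -0.39, and none passed. Outputs among the listed members were given with their classes above and did not enter these medians. The medians therefore describe these 6 transcripts only, not the output of the pathway. PRM5 (YIL117C), often used to report the pathway, had ratios of 1.49, 2.28 and 0.15 (mean 1.31 ± 1.07, adjusted p = 0.0919, limma). Replicate 3 thus had the lowest list median, but PST1 was highest there (0.82, -0.27 and 1.56 on replicates 1 to 3). The list's median was 0.65 over all arrays and 0.93 without replicate 3. It was 0.37 without replicate 1, 0.31 without replicate 2 and 0.72 after sub-grid centring. In the other chitin genes, GFA1, the first enzyme of chitin precursor synthesis, had the largest mean at -0.79 ± 0.97. In the daughter separation genes it was DSE2 at -0.32 ± 0.27, but after sub-grid centring DSE2 was at -0.026 and DSE1 had the largest mean, 0.43. Neither list had a call.

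**Figure D4:**
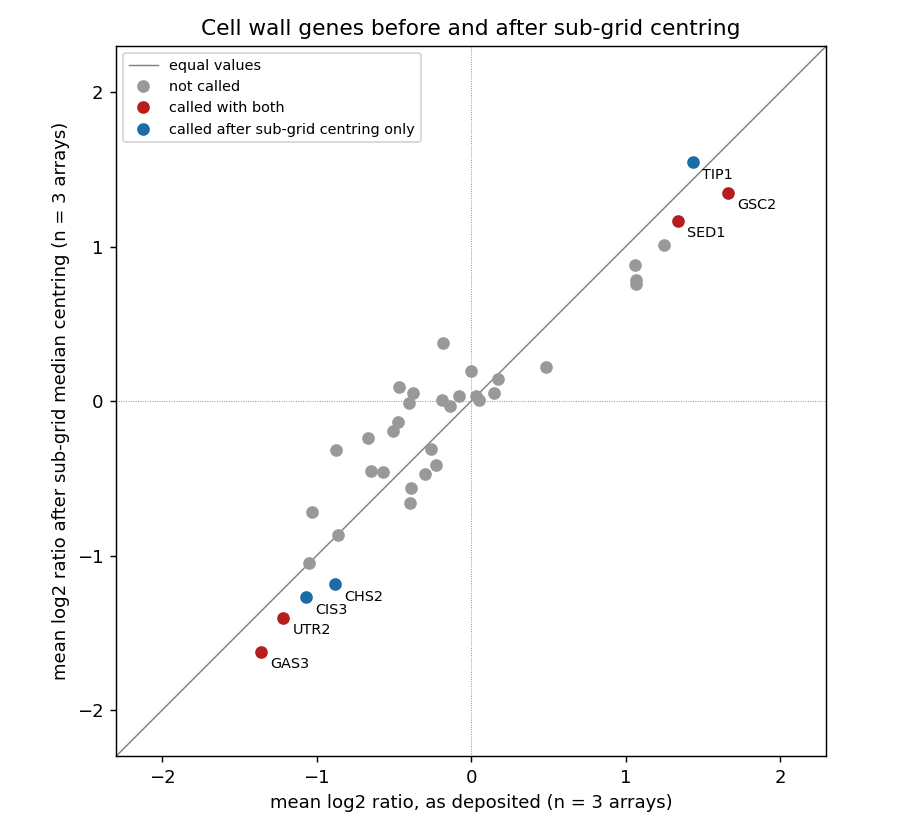
Mean log2 ratio of the 38 tested wall genes as deposited (horizontal axis) and after subtracting sub-grid medians (vertical axis), with the line of equal values and named points for called genes. GSC2, SED1, GAS3 and UTR2 were called both ways, and TIP1, CHS2 and CIS3 only after centring.

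The calls rested on the choice of arrays. Without replicate 2, 8 of the 38 genes passed, where 17.3% of all features did: GSC2, TIP1, MKK1, DSE4, PIR3 and BGL2 higher, and UTR2 and RHO1 lower. With all 3 arrays 7.86% of all features passed, so this smaller fit called more. Its calls of MKK1 (0.16 and 3.61 on replicates 1 and 3) and DSE4 (2.52 and 0.53) each rested mainly on 1 array. Without replicate 1, 0 members passed limma's test, where 0.289% of all features did, and 11 members (28.9%) had an unadjusted p under 0.05, against 18.9% of all features. Without replicate 3, 0 members passed, where 0% of all features did, and 13 members (34.2%) had such a p, against 23.1% of all features. GSC2 and UTR2 were called in that fit without replicate 2, while SED1 and GAS3 lost their call whichever array was left out, with means of 1.11 to 1.60 and of -1.70 to -1.06. Adding features with values on 2 arrays left only GSC2 and SED1 past the threshold in limma. These were 4.88% of 41 members, where 4.8% of 4979 features passed, so the share was that of all features. Without moderation none of the 4 passed, where 1 of 3802 features did. After sub-grid centring 7 members passed, where 10.3% of all features did, the 4 named first and TIP1, CHS2 and CIS3.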

How the data were processed

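The authors deposited 1 ratio for each spotted probe of an array, read here as log2. A LOWESS step, run on spots flagged 0, is the sole processing recorded per the labels. How the slides were scanned and corrected for background, and the base and sign of the logarithm, are not given in the sources used here. Of 6272 probes, 5308 had 1 gene symbol in the platform annotation, 964 had none and 0 had several. By Entrez identifier 5304 matched the RefSeq gene table (assembly R64), used for names and gene order only. Probes of a gene were averaged (88 genes, 65 with identical values on every probe). Features with values on all 3 arrays were tested for a mean different from 0 with lmFit and eBayes (limma 3.58.1, R 4.3.3; 5.10 prior degrees of freedom), with Benjamini-Hochberg adjustment over 3802 features and a threshold of 0.05. The fit was tested on simulated data. No intensities or depth were at hand, so the number of arrays limits the precision.

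The members, lists and pairs were chosen with earlier results of these data known, and the other wall genes come from textbook knowledge. Named are all members, called genes of the other lists, and otherwise a list's largest mean. Outside that rule, KDX1 was named for its alias, and ANP1 and DSE1 for their values after sub-grid centring. SPI1 and PST1 were also named for their values. The planned difference between GSC2 and FKS1 could not be formed. The alternatives were other centring, scaling, quantile normalization, sub-grid centring (32 inferred sub-grids of 14 by 14 spots), 2-array values, robust or no moderation, array weights, first probes, stricter tests and leaving out each array.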

Additional observations from a re-analysis of the deposited data

How the results depend on the processing

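Calls among the listed genes numbered 4 as deposited, 7 after sub-grid centring, 2 with values on at least 2 arrays and 0 without moderation, at an adjusted p under 0.01 or against a 1.5-fold change, and 0 to 8 over the arrays left out. For the other wall genes, 6 became 10 with quantile normalization and 11 after sub-grid centring, where all features went from 299 to 425 and 391; it was 0 under the last 3 of those settings and 0 to 14 over the arrays left out. For all features the count was 1 without moderation, 0 at 0.01, 4 against a 1.5-fold change and 0 to 657 over the arrays left out. The share of all features called was 7.86% as deposited, 10.3% after sub-grid centring and 4.8% with values on at least 2 arrays. At an unadjusted p under 0.05 in limma, the listed genes numbered 14 with all arrays (36.8%, all features 29.7%), 6 without moderation (15.8%, 16%) and 5 against a 1.5-fold change (13.2%, 10.9%). The median of the listed genes moved from -0.28 to -0.023 after sub-grid centring and was -0.39 to -0.11 over the arrays left out. Counts under median centring, a common deviation, robust moderation, array weights and first probes stayed within 1.5 times.

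None of the 4 called genes changed sign. Uncalled genes that did were, after sub-grid centring, SKN1 (0.37), KRE5 (0.055), SCW4 (0.19), CWP2 (0.0057), MID2 (0.032) and SLT2 (0.089). Over the arrays left out they were SKN1 (-0.76 to 0.17), KRE1 (-0.13 to 0.20), SCW4 (-0.31 to 0.22), SCW11 (-0.38 to 0.017), SLT2 (-0.73 to 0.041), GAS5 (-0.50 to 0.026), CWP1 (-0.58 to 0.075), MKK2 (-0.039 to 0.39) and MLP1 (-0.016 to 0.092). The causes were not tested. No paired analysis was possible because no second group shares the replicate numbers; treated and untreated RNA are already compared within each array by the ratio.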
